A study of Mus musculus with 31 samples.

Results

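The genes described here encode the respiratory chain and ATP synthase parts that are transcribed in the cell nucleus. They were chosen by name from the gene tables: names that start with Nduf, Uqcr, Cox4 to Cox8 or Atp5, and the genes Sdha to Sdhd, without numbered pseudogene copies. Of 55401 listed genes, 106 matched these names, and 98 of them reached at least 10 counts in at least 3 libraries of a table and were kept. The kept genes comprised 7 core subunits, 32 accessory subunits and 8 assembly factors of complex I, 4 genes of complex II, 8 of complex III, 21 of complex IV and 18 of ATP synthase. The complex IV group includes *Ndufa4* and *Ndufa4l2*, whose names point to complex I but whose products are now assigned to complex IV. A total of 5 kept genes were set apart as pseudogenes (*Ndufa12-ps*, *Ndufs5-ps*, *Cox5b-ps*, *Cox6c2* and *Atp5pb-ps*), of which *Cox5b-ps* is annotated as protein-coding. *Ndufb1-ps*, whose annotated type is a non-coding RNA from a bidirectional promoter, was counted with the complex I accessory subunits. Not kept for low counts were *Ndufab1-ps*, *Ndufs6b*, *Atp5l2-ps*, *Cox8c*, *Atp5c1-ps*, *Ndufb4c*, *Ndufa11b* and a second entry of *Atp5o*.

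The respiratory chain passes electrons from NADH (complex I) and succinate (complex II) through complex III to complex IV, where oxygen is reduced, and the proton gradient built on the way drives ATP synthase. A few subunits of complexes I, III, IV and ATP synthase are encoded by mitochondrial DNA, whereas all others, including every subunit of complex II, are nuclear genes. Several nuclear subunits of complex IV and subunit c of ATP synthase exist in more than 1 gene copy, and these isoforms are used to different extents in muscle, liver, lung and brain. Microglia, the resident macrophages of the brain, can use both glycolysis and oxidative phosphorylation for energy.

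RNA sequencing of mice of 13 months of age covered bulk temporo-occipital cortex and CD11b+ microglia, which were pulled with magnetic beads from the whole dissociated brain. A+ mice carry transgenes under the mouse prion protein promoter, among them a chimeric mouse and human APP with the Swedish mutation, that cause amyloid deposition, A- mice do not, and Pki/ki mice carry the P522R change in both copies of *Plcg2*, made with CRISPR/Cas9, whereas Pwt/wt mice have the wild-type gene. All lines are on a C57BL/6J background. CD11b+ libraries came from female A-/Pwt/wt (n = 7), A+/Pwt/wt (n = 4) and A+/Pki/ki mice (n = 4) and from male A-/Pwt/wt (n = 3) and A-/Pki/ki mice (n = 4), and cortex libraries from female A+/Pwt/wt (n = 4), A+/Pki/ki (n = 4) and A-/Pwt/wt mice (n = 1). Libraries are named here by the mouse number in the labels. Each female A+ CD11b+ library has another suffix in its column name than the female A- libraries have, and what the suffix stands for is not given, so that the transgenes and whatever the suffix marks cannot be told apart. Mouse 236 is labelled A- in CD11b+ microglia and A+ in cortex, and both labels were used as given.

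Total counts per library were 25226544 to 43129427 in cortex and 16229831 to 25118180 in CD11b+ microglia. How the depth and the number of mice each limit the precision was not compared. In CD11b+ libraries, 10 microglial markers (such as *Cx3cr1* and *P2ry12*) summed to between 11907 and 27639 CPM (counts scaled to a common library size with TMM within each table), compared with 404 to 903 CPM in cortex. In contrast, 15 neuronal markers summed to between 225 and 4414 CPM in CD11b+ libraries and between 13045 and 14544 CPM in cortex. The labelled cell type and tissue thus had their defining markers. RNA of oligodendrocytes was also present in all CD11b+ libraries: 10 markers of these cells, all above 0 and led by *Mbp*, summed to between 7000 and 74599 CPM, compared with 4017 to 6739 CPM in cortex. These sums are carried by the most abundant markers, since 8 of the 10 had a negative log2FC in CD11b+ libraries against cortex in both A+ genotypes (median log2FC −0.52 in A+/Pwt/wt and −0.77 in A+/Pki/ki mice). In bulk RNA of this kind, fewer cells of a type and less RNA per cell cannot be told apart.

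Complex IV genes led the levels in both preparations. Levels of different genes are compared here only per length, as CPM per kilobase of annotated exon (GRCm38) on a scale common to the A+ CD11b+ and cortex libraries. This length sums the exons of all annotated isoforms and not those of a transcript, so that ranks and isoform shares depend on the annotation. *Cox8a*, the smallest nuclear complex IV subunit, ranked 1st of the kept genes in A+/Pwt/wt microglia (754 ± 202 CPM per kilobase, mean ± SD, n = 4) and in A+/Pwt/wt cortex (498 ± 73.1, n = 4). *Cox6a1*, the common isoform of subunit 6A, followed with 668 ± 186 in microglia and 453 ± 72.3 in cortex. *Cox4i1*, the common isoform of subunit 4, ranked 3rd with 392 ± 104 and 277 ± 43.6. Neighbours in this order overlapped within 1 SD of their means in microglia, and in cortex *Cox8a* and *Cox6a1* did, whereas *Cox4i1* lay below *Cox6a1* by more than the SDs of both. *Cox7a2l*, counted here with complex IV, ranked 4th in microglia (205 ± 35.0 CPM per kilobase) but 13th in cortex (89.4 ± 9.1). These are RNA levels, and its protein was not measured here.

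Outside complex IV, *Ndufa1*, a small membrane-arm subunit of complex I, ranked 6th in microglia (141 ± 29.2 CPM per kilobase, against 69.7 ± 10.1 and rank 27 in cortex). *Atp5a1* and *Atp5b*, which encode the alpha and beta subunits of the catalytic head of ATP synthase, ranked 7th and 8th in microglia and 4th and 5th in cortex. For *Atp5a1* the level was 130.5 ± 10.7 in microglia and 240.1 ± 11.6 CPM per kilobase in cortex. The leading complex III gene was *Uqcrh*, the hinge protein, in microglia (116 ± 24.5) and *Uqcr10* in cortex (112 ± 15.6). *Sdha*, the flavoprotein of succinate dehydrogenase, led complex II with 68.6 ± 8.31 and 80.6 ± 1.56, and *Ndufaf8* led the complex I assembly factors with 18.8 and 16.2 CPM per kilobase in microglia and cortex. The leading complex I accessory subunit in cortex was *Ndufa2* (88.9 ± 14.7 CPM per kilobase).

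**Figure D1:**
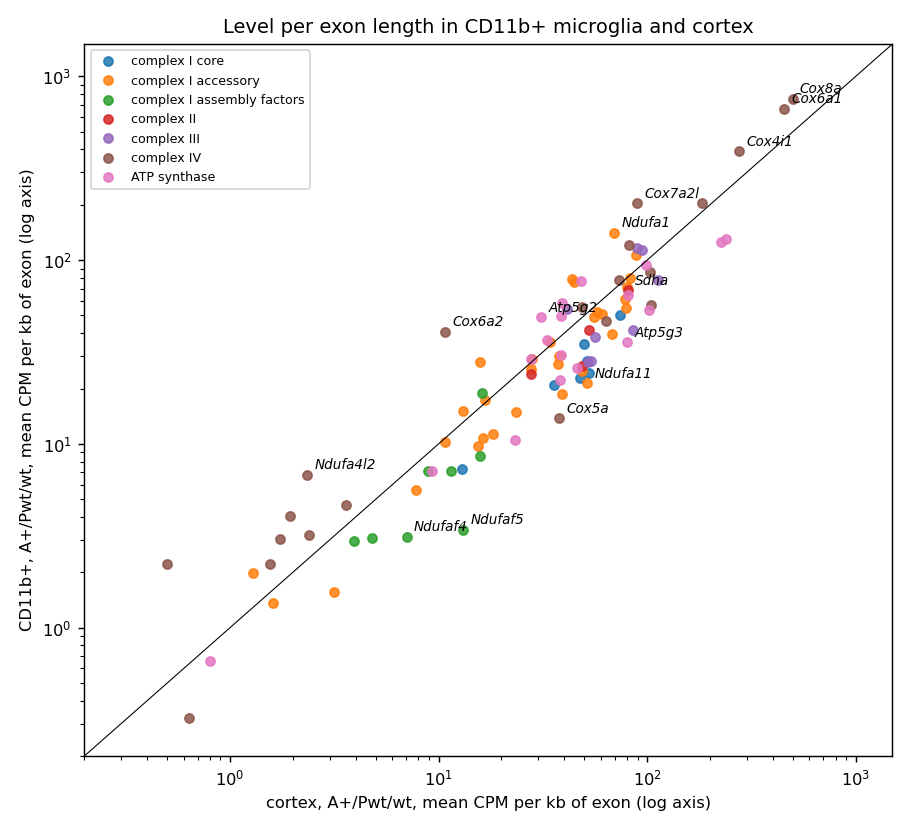
Level of each kept gene in CD11b+ microglia (vertical axis) against cortex (horizontal axis) of A+/Pwt/wt mice, as the mean of 4 libraries in CPM per kilobase of exon on log axes, with 1 point per gene coloured by complex and the diagonal marking equal levels. *Cox8a* and *Cox6a1* lie at the upper end in both, *Cox6a2* and *Cox7a2l* lie above the diagonal, on the microglia side, and all core subunits of complex I lie below it.

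Promoter windows of 300 bases around a RefSeq gene start are shown for 4 of the genes on which the results below turn: the abundant *Cox6a1* and *Cox8a*, and *Atp5g2* and *Cox7a2l*, which were higher in microglia than in cortex. The sequences are those of RefSeq for GRCm38.p6, written 5′ to 3′ on the gene's strand, all of which are minus strands. Capitals mark matches, on either strand, to GCGCA and GCGC parted by any 1 base (written N in motif notation), the palindrome bound by NRF1, or to CCGGAAG, a motif of the GABP family, both of which are known regulators of respiratory genes. The windows are chr5:115348909-115349208 for *Cox6a1*, chr19:7217567-7217866 for *Cox8a*, chr15:102670998-102671297 for *Atp5g2* and chr17:83514284-83514583 for *Cox7a2l*. For *Atp5g2* and *Cox7a2l*, this start lies inside the gene as Gencode annotates it, downstream of its outermost start.
Cox6a1: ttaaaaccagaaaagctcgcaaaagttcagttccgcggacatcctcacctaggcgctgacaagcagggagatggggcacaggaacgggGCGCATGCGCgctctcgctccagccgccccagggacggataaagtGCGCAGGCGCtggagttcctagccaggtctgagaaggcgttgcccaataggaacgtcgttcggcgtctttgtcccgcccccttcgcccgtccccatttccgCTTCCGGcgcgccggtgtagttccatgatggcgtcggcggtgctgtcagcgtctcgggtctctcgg
Cox8a: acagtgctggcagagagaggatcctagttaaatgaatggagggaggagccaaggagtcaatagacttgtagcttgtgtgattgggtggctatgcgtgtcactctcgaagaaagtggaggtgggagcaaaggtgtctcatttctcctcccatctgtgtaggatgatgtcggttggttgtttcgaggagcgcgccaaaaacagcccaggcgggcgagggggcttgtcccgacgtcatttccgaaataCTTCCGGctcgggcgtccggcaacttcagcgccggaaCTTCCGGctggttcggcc
Atp5g2: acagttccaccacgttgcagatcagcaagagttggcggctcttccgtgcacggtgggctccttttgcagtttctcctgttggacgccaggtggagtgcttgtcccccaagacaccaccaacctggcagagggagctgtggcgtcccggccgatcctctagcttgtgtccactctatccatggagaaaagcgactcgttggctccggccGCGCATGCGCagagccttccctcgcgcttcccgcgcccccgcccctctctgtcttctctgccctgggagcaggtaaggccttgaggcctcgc
Cox7a2l: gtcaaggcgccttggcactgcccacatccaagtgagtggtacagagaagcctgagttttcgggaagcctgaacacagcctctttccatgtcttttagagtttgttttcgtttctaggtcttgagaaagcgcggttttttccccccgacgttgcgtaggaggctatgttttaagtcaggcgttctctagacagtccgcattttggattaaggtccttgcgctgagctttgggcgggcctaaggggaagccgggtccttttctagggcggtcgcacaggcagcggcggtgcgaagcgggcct
The *Cox6a1* window holds 2 matches to the NRF1 palindrome and 1 to the GABP motif, that of *Cox8a* holds 2 to the GABP motif, that of *Atp5g2* holds 1 to the NRF1 palindrome, and that of *Cox7a2l* holds neither. A promoter window was given for 76 of the 93 kept genes that were not set apart as pseudogenes. The NRF1 palindrome was found in 19 of these 76 (25.0%), compared with 5.19% of all 27025 genes with a window, and the GABP motif also in 19 (25.0%), compared with 9.93% of all genes. By complex, the NRF1 palindrome was in 2 of 3 complex II genes, 6 of 15 ATP synthase genes, 2 of 7 complex I assembly factors, 7 of 27 complex I accessory genes, 1 of 5 complex III genes, 1 of 14 complex IV genes and 0 of 5 complex I core genes. Both motifs occurred in 4 kept genes (5.26%) and in 1.12% of all genes. These matches describe letters in the windows and not binding.

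In female CD11b+ microglia, the levels of these genes varied between libraries of 1 genotype, most in A-/Pwt/wt and least in A+/Pwt/wt mice. The genotype groups overlapped in the sum of every complex. Among the A-/Pwt/wt libraries, the sum of complex IV varied most and that of complex II least. In the 7 female A-/Pwt/wt libraries, complex IV genes summed to 4619, 2941, 2172, 4284, 1099.7, 1333 and 1125 CPM (mice 223, 224, 225, 236, 242, 243 and 245), a 4.2-fold range. Mice 223 and 236 were highest and mice 242, 243 and 245 lowest. The core subunits of complex I summed in the same order of mice to 416, 453, 437, 557, 331, 351 and 331 CPM, a 1.68-fold range. Between the highest and lowest library, the other groups spread 2.64-fold (complex I accessory subunits), 2.21-fold (complex III), 2.08-fold (ATP synthase), 1.63-fold (complex I assembly factors) and 1.52-fold (complex II).

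Gene by gene, the median highest-to-lowest ratio was also widest for complex IV (3.65) and narrowest for complex II (1.61), while the groups between them changed places. Of the 87 kept genes with a group mean of at least 5 CPM, the median highest-to-lowest ratio over the 7 A-/Pwt/wt libraries was 2.72, compared with 1.81 over 11385 genes of at least 5 CPM. Above 3-fold were 35 of the 87 kept genes and 1745 of the 11385 genes. *Ndufb9*, a membrane-arm subunit of complex I, ranged most, from 20.4 CPM in mouse 242 to 153 CPM in mouse 223 (7.51-fold). *Cox6a1* ranged from 163 to 1124 CPM (6.89-fold). *Uqcrc2*, a large structural subunit of complex III, ranged least, from 49.9 to 67.6 CPM (1.36-fold). Kept genes of up to 1 kb of annotated exon had a median ratio of 3.55 (19 genes), those of 1 to 2 kb 3.02 (35 genes) and longer ones 1.84 (33 genes). This is the summed exon length of all annotated isoforms and not that of a transcript, and it differs between the complexes. The cytoplasmic ribosomal protein genes had a median ratio of 2.48 (80 genes). Over the 4 A+/Pwt/wt libraries, the median ratio of the kept genes was 1.47, against 1.39 over all genes, with 0 of 87 above 3-fold (209 of 11287 among all genes). Over the 4 A+/Pki/ki libraries it was 1.87, against 1.51 over all genes. There, 10 of 87 were above 3-fold, a share near that of all genes (1332 of 11094). These values are descriptions with no test.

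Other RNA moved with this spread. The oligodendrocyte markers summed to 74599, 37802, 34773, 58317, 21733, 30990 and 21069 CPM in the 7 A-/Pwt/wt libraries (mice in the order above), with all 10 markers above 0 and *Mbp* the most abundant. The 13 protein genes of mitochondrial DNA summed to 227035, 76277, 69132, 115859.6, 37047, 49299 and 37900 CPM, and the neuronal markers, led by *Camk2a*, to 4414, 1011, 838, 1881, 453, 884 and 514 CPM. Mice 223 and 236 were highest and mice 242 and 245 lowest or next to lowest in complex IV genes and in all 3 of these other sums. In the A+/Pki/ki group, mouse 335 had 64697 CPM of oligodendrocyte markers and 4309 CPM of complex IV genes, against 7000 to 27617 and 1323 to 1598 CPM in mice 244, 394 and 405. In the A+/Pwt/wt group, mouse 331 was highest in both (51066 and 3171 CPM). The part of this other RNA in the levels of the respiratory genes was not tested. In the results below, values without the libraries above 50000 CPM of oligodendrocyte markers (mice 223, 236, 331 and 335 and the males 136 and 139) are given where they change a count or a call, a limit chosen after the data were seen.

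**Figure D2:**
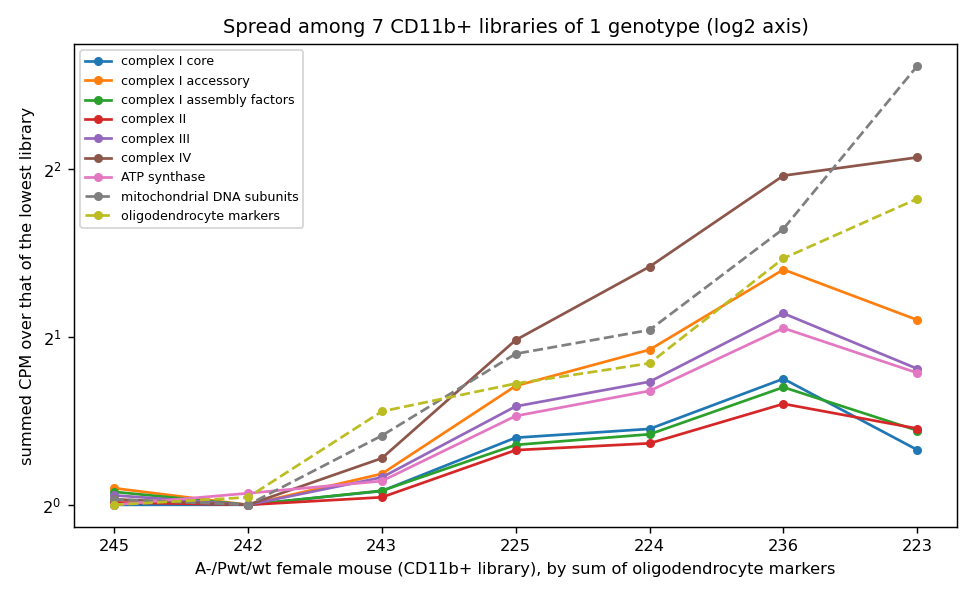
Summed CPM of each complex, of mitochondrial DNA genes and of oligodendrocyte markers in the 7 female A-/Pwt/wt CD11b+ libraries, ordered along the horizontal axis by their oligodendrocyte markers, with the vertical axis giving each sum over its lowest library on a log2 scale. Complex IV spans 4.2-fold and the complex I core 1.68-fold, while mitochondrial DNA genes span 6.13-fold and oligodendrocyte markers 3.54-fold.

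Cortex libraries were more even than those of female CD11b+ microglia. Complex IV genes summed to 2656, 2272, 2566 and 1990.2 CPM in A+/Pwt/wt cortex (mice 236, 257, 259 and 329), to 2585, 2387, 2320.1 and 2532 CPM in A+/Pki/ki cortex (mice 184, 203, 216 and 222) and to 2238 CPM in the A-/Pwt/wt library. The ranges of both A+ groups overlap, and the A- library lies within that of A+/Pwt/wt. The core subunits of complex I summed to 752 to 902 CPM in A+/Pwt/wt, 770 to 884 CPM in A+/Pki/ki and 858 CPM in A-/Pwt/wt cortex. The median highest-to-lowest ratio of the kept genes was 1.26 in A+/Pwt/wt and 1.18 in A+/Pki/ki cortex, against 1.22 and 1.18 over all genes of at least 5 CPM. In male CD11b+ microglia it was 1.14 in A-/Pwt/wt and 1.39 in A-/Pki/ki mice. Such a ratio can only widen with more libraries, and these groups hold between 3 and 7.

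**Figure D3:**
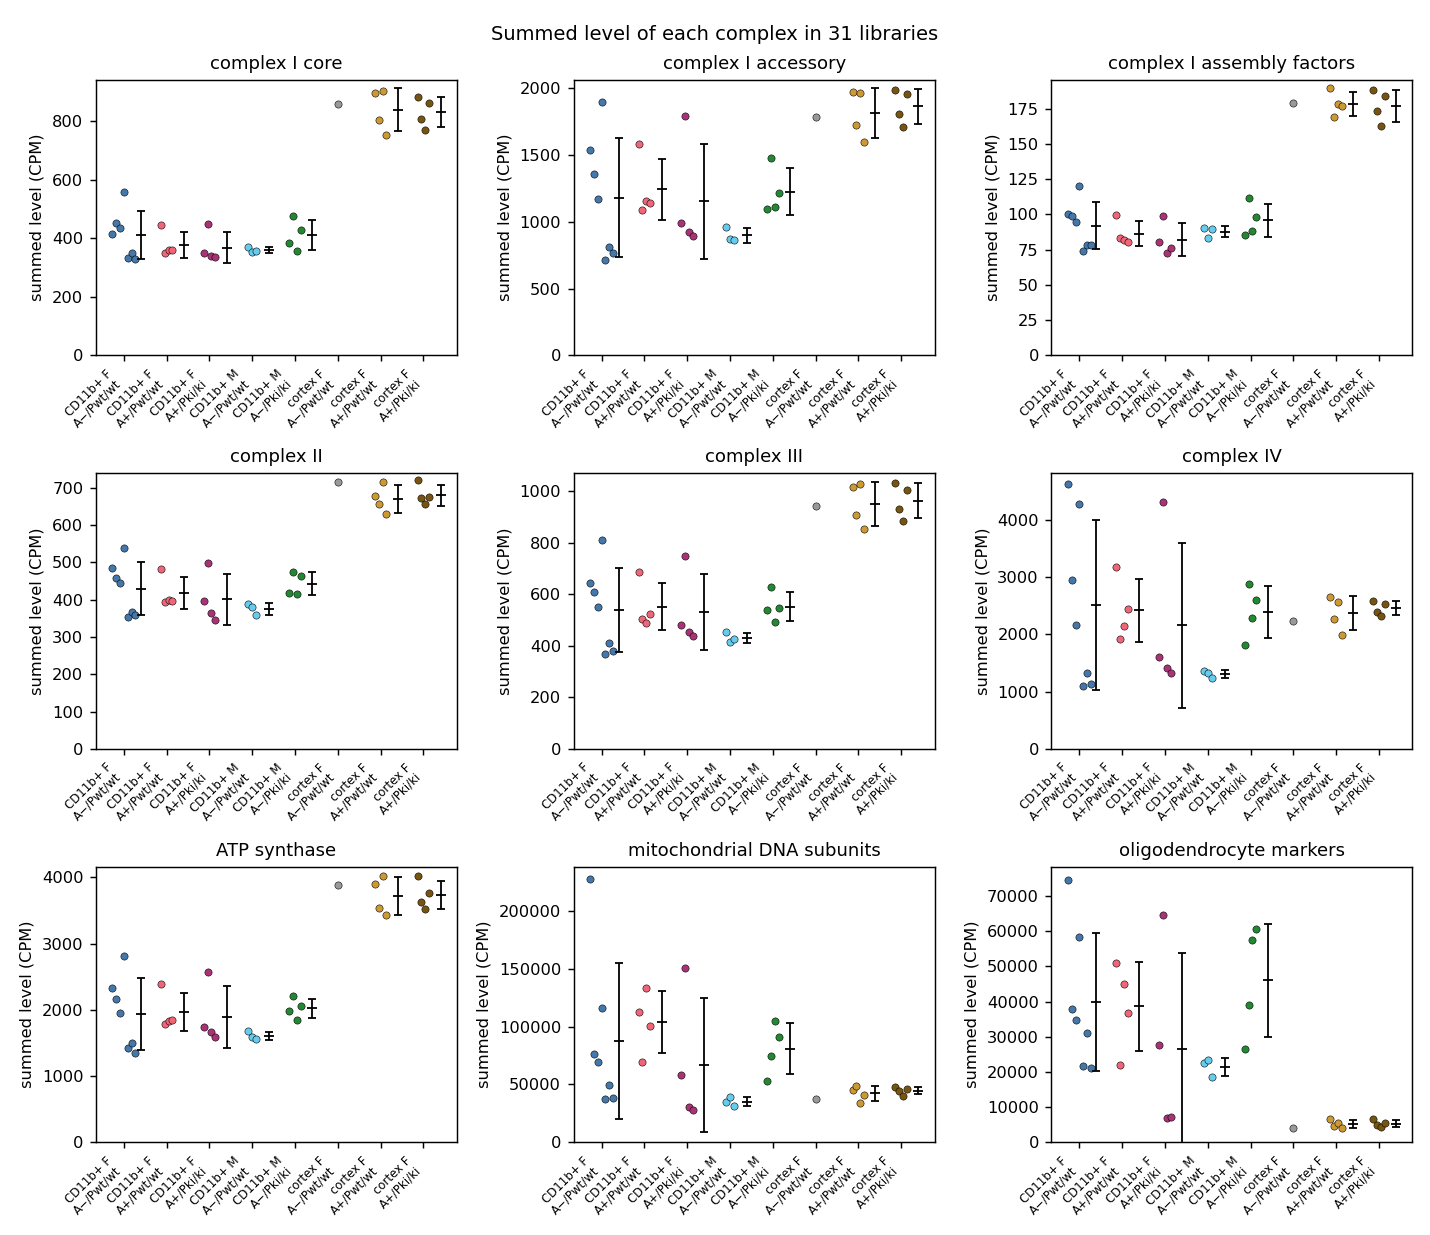
Summed CPM of each complex, of mitochondrial DNA genes and of oligodendrocyte markers in each of the 31 libraries (points), by group, with bars for the mean and SD (cut at 0) and TMM scaling within each table. In female CD11b+ microglia the genotype groups overlap in every complex, with complex IV at 2511 ± 1483, 2419 ± 546 and 2159 ± 1438 CPM in A-/Pwt/wt, A+/Pwt/wt and A+/Pki/ki mice.

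Whether microglia of mice with amyloid differ in these genes was addressed by comparing A+ with A- females with wild-type PLCG2. Of 95 tested genes, 1 passed the test, *Cox6a2* (edgeR quasi-likelihood test, Benjamini-Hochberg adjusted over all 17355 genes tested, FDR 0.05). Of all genes, 1.29% passed (1.01% higher and 0.282% lower), a share near that of the kept genes. Across the 95 genes, 54 had a positive and 41 a negative log2FC, and the median log2FC was 0.03, against −0.03 over all genes. By complex, the median log2FC was 0.04 for ATP synthase, 0.09 for complex I accessory subunits, −0.03 for its assembly factors, −0.13 for its core, −0.11 for complex II, 0.13 for complex III and 0.01 for complex IV. With 1 library left out, the median of all 95 lay between −0.10 (without mouse 331, 32 of 94 positive) and 0.17 (without mouse 236, 73 of 95 positive). In A+/Pki/ki against the same A- mice, 1 of 94 tested genes passed, again *Cox6a2*, with 1.64% of all genes (1.35% higher and 0.287% lower), 34 positive and 60 negative log2FC and a median of −0.07. Single libraries moved this direction, with 10 of 94 positive and a median of −0.31 without mouse 335, and 59 of 94 positive and a median of 0.06 without mouse 236. The median was also above 0 without mouse 223 (0.02), 394 (0.01) or 405 (0.0048). Both comparisons share the A- libraries and are not independent.

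*Cox6a2* encodes the isoform of complex IV subunit 6A that is typical of heart and skeletal muscle. It lies at chr7:128205435-128206387 on the minus strand of GRCm38, and its exons overlap *Itgad* on the other strand. Its coding sequence of 294 bases (Gencode annotation of GRCm38) is shown because reads of 2 related genes could be confused. It aligned to that of *Cox6a1* over 293 bases with 202 identical (68.9%), and the longest identical run, in capitals, had 12 bases.
Cox6a2: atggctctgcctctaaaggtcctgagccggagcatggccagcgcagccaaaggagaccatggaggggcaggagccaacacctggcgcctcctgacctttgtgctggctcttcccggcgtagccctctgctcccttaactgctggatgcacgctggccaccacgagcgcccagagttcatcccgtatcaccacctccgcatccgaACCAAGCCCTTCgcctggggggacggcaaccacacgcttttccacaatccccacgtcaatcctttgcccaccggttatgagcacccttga
In A-/Pwt/wt microglia, *Cox6a2* was at 7.61, 6.61, 6.6, 9.25, 4.89, 3.29 and 3.30 CPM (mice 223 to 245 in the order above). In A+/Pwt/wt microglia it was at 17.6, 31.9, 23.5 and 25.6 CPM (mice 331, 367, 375 and 380), and in A+/Pki/ki microglia at 19.5, 19.2, 23.9 and 26.9 CPM (mice 244, 335, 394 and 405). All 8 A+ libraries lay above all 7 A- libraries. The log2FC was 2.08 (SE 0.27, adjusted p 0.00202) in A+/Pwt/wt and 1.92 (SE 0.27, adjusted p 0.00459) in A+/Pki/ki microglia. Male microglia, all A-, had 4.70, 5.18 and 4.52 CPM in Pwt/wt (mice 94, 101 and 102) and 3.01, 5.93, 3.56 and 3.72 CPM in Pki/ki mice (84, 104, 136 and 139). In cortex it was at 6.89 to 9.15 CPM in A+/Pwt/wt, at 7.02 to 10.2 CPM in A+/Pki/ki and at 7.16 CPM in the A-/Pwt/wt library, with no gap between A+ and A-.

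Among the A-/Pwt/wt libraries, *Cox6a2* was highest in mice 236 and 223, which also had the most oligodendrocyte RNA, and lowest in mice 242, 243 and 245. Among the A+/Pwt/wt libraries, mouse 331 had the most oligodendrocyte RNA and the lowest *Cox6a2*, and in the A+/Pki/ki group mouse 335, with the most of this RNA, had about the same *Cox6a2* as mouse 244. *Itgad*, whose reads cannot be separated from those of the overlapping exons without strand, was at 0 to 1.16 CPM in all female CD11b+ libraries. *Cox6a1* did not pass the test in either comparison. It was at 1124, 609, 400.5, 915, 163, 223 and 195 CPM in A-/Pwt/wt, at 536, 281, 382 and 454 CPM in A+/Pwt/wt and at 223, 850.1, 176 and 166 CPM in A+/Pki/ki microglia, with overlapping groups (log2FC −0.31, SE 0.50, adjusted p 0.956, and −0.55, SE 0.63, adjusted p 0.680). Per length, *Cox6a2* made up 1.53 ± 0.75% of subunit 6A transcripts in A-/Pwt/wt, 6.31 ± 3.02% in A+/Pwt/wt and 9.30 ± 5.31% in A+/Pki/ki microglia. Other lists moved in the same comparison of A+/Pwt/wt with A-/Pwt/wt: 8 of 13 genes of the disease-associated microglia (DAM) list were higher and 2 of 6 border macrophage markers lower. Of all genes, 1.01% were higher and 0.282% lower. In A+/Pki/ki against A-/Pwt/wt mice, 10 of 13 DAM genes were higher and 1 of 6 border macrophage markers lower (1.35% and 0.287% of all genes). The DAM gene *Itgax*, for example, was at 22.8 to 60.9 CPM in A-/Pwt/wt and 182.5 to 597.9 CPM in A+/Pwt/wt microglia. None of the microglial, neuronal, astrocyte or oligodendrocyte markers passed the test. The part of these lists in the *Cox6a2* difference was not tested.

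**Figure D4:**
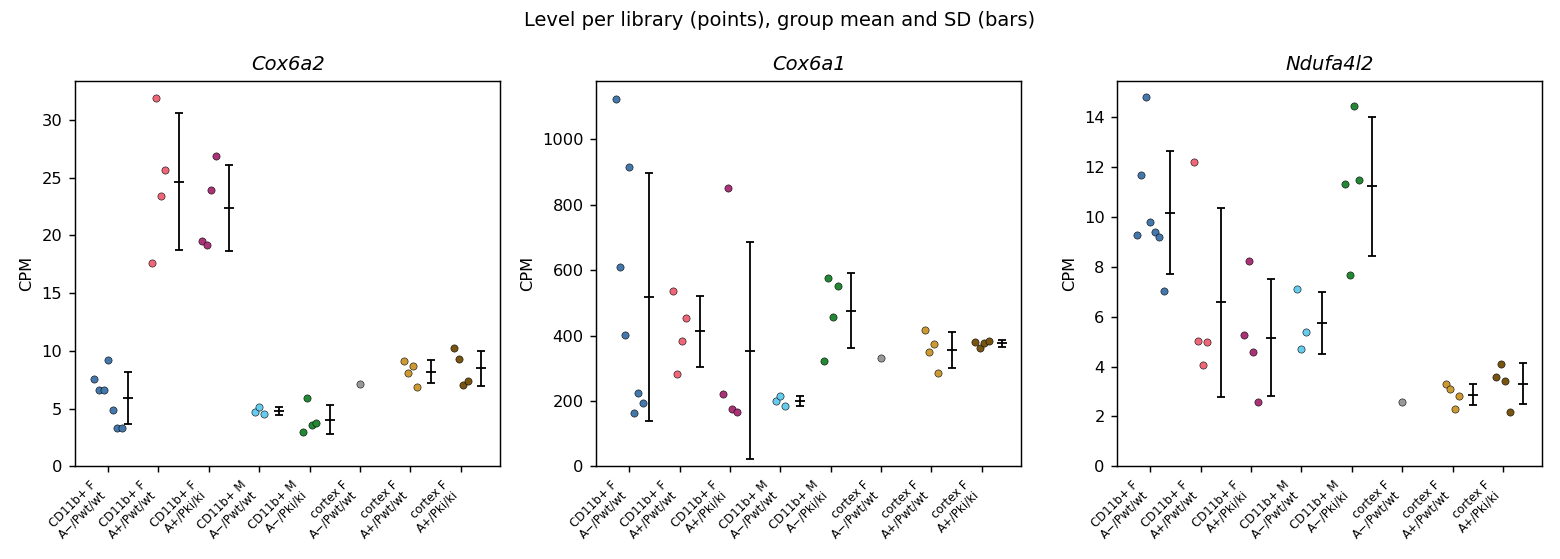
CPM of *Cox6a2*, *Cox6a1* and *Ndufa4l2* in every library (points), by group, with bars for the mean and SD. *Cox6a2* is at 17.6 to 31.9 CPM in the 8 female A+ CD11b+ libraries and at 3.01 to 9.25 CPM in the 14 A- CD11b+ libraries, while *Cox6a1* overlaps between all female groups.

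*Ndufa4l2*, a hypoxia-inducible relative of the complex IV subunit gene *Ndufa4*, tended in the other direction without passing the test. In A-/Pwt/wt microglia it was at 9.29, 11.7, 14.8, 9.79, 9.39, 9.19 and 7.03 CPM, in A+/Pwt/wt at 12.2, 5.02, 4.07 and 4.97 CPM and in A+/Pki/ki at 5.27, 8.21, 4.59 and 2.59 CPM. Mouse 331 in A+/Pwt/wt and mouse 335 in A+/Pki/ki were within the A- range, and the other A+ libraries were below it. The log2FC was −0.62 (SE 0.30, adjusted p 0.522) and −0.98 (SE 0.29, adjusted p 0.136). Without mouse 331 it was −1.11 (adjusted p 0.0366) and without mouse 335 −1.31 (adjusted p 0.0232), and in A+/Pki/ki mice the DESeq2 Wald test called it with all libraries (log2FC −0.98, adjusted p 0.0319). Without all libraries above 50000 CPM of oligodendrocyte markers, *Ndufa4l2* was the only kept gene called lower in either comparison (log2FC −1.12, adjusted p 0.027, and −1.34, adjusted p 0.0338) and *Cox6a2* the only one called higher, with 3.96% (2.11% higher and 1.86% lower) and 6.96% (4.24% higher and 2.72% lower) of all genes called. Its exons overlap those of *Shmt2* on the other strand, and reads of both cannot be told apart without strand. In male microglia *Ndufa4l2* was at 7.13, 4.71 and 5.39 CPM in A-/Pwt/wt and at 11.3, 7.65, 14.4 and 11.46 CPM in A-/Pki/ki mice. The 6 markers of mural (vessel wall) cells summed to 492 to 711 CPM in female A-/Pwt/wt microglia. In A+/Pwt/wt females they summed to 761, 385, 448 and 354 CPM and in A+/Pki/ki to 401, 552, 314 and 231 CPM. All 6 had a negative log2FC in both comparisons (median −0.39 and −0.87), none called. Male sums were 500, 508 and 419 CPM in A-/Pwt/wt and 734, 459, 984 and 972 CPM in A-/Pki/ki mice. The part of these cells in *Ndufa4l2* was not tested.

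The effect of the P522R change on the A+ background was addressed in both preparations. In CD11b+ microglia, 0 of 96 tested genes passed the test in A+/Pki/ki against A+/Pwt/wt mice, as did 0.0% of all 17039 genes tested. None of the 96 had an unadjusted p under 0.05, compared with 3.37% of all genes, and neither DESeq2 nor limma called any of them. The sign was uneven, with 86 negative and 10 positive log2FC and a median of −0.17, against 0.00 over all genes. The median stayed below 0 with any 1 library left out, but its size depended on single libraries. Without mouse 331, 46 of 95 genes were positive and the median was −0.01, without mouse 405 it was −0.05 and without mouse 394 −0.07. Without mouse 335, 4 of 96 were positive and the median was −0.40. In that fit 49 had an unadjusted p under 0.05, compared with 4594 of 16825 among all genes. By complex, the median log2FC was −0.27 for complex IV, −0.17 for complex I accessory subunits, −0.17 for its assembly factors, −0.13 for ATP synthase, −0.12 for complex III, −0.10 for the complex I core and 0.00 for complex II. The 6 genes that mark these complexes overlapped between the groups. *Ndufa5*, an accessory subunit of complex I, was at 28.7, 76.5, 26.1 and 17.4 CPM in A+/Pki/ki and at 64.5, 36.1, 44.4 and 41.4 CPM in A+/Pwt/wt microglia (log2FC −0.37, SE 0.45, adjusted p 0.853). *Sdha* was at 223, 293, 189 and 187 CPM and at 288, 229, 233 and 252 CPM (log2FC −0.22, SE 0.18, adjusted p 0.853). For both genes mouse 335 lay above all A+/Pwt/wt libraries, and the other 3 A+/Pki/ki libraries lay below them.

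Marker lists differed in direction in this comparison. All 13 mitochondrial DNA genes, 15 of 15 neuronal, 10 of 10 astrocyte and 10 of 10 oligodendrocyte markers had a negative log2FC, and 10 of 10 microglial markers a positive one, none of them called. The largest median was that of the neutrophil markers, led by *S100a9* and with none at 0, of which 6 of 6 were positive (median log2FC 2.48) with an unadjusted p under 0.05 and none called. They summed to 404, 1505, 32.5 and 186 CPM in A+/Pki/ki and to 39.1, 92.2, 113 and 104 CPM in A+/Pwt/wt microglia, so that the groups overlapped. Of 86 ribosomal protein genes, 62 were positive (median log2FC 0.06). The oligodendrocyte markers summed to 27617, 64697, 7000 and 7163 CPM in A+/Pki/ki and to 51066, 22042, 44891 and 36633 CPM in A+/Pwt/wt microglia, with *Mbp* the most abundant in each library and no marker at 0. The part of these lists in the direction of the respiratory genes was not tested. Without mice 331 and 335, 48 of 93 tested genes had an unadjusted p under 0.05, compared with 20.1% of all genes, 0 passed the adjusted test, 11 were positive and the median log2FC was −0.28. The gene with the smallest p was the pseudogene *Ndufa12-ps* (0.36 ± 0.18 against 0.71 ± 0.35 CPM, log2FC −0.995, SE 0.50, adjusted p 0.853). Among genes of at least 5 CPM, *Atp5g2* had the largest log2FC (0.17, SE 0.10) and *Ndufaf2*, a complex I assembly factor, the smallest (−0.41, SE 0.26).

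In cortex, 0 of 98 genes passed in A+/Pki/ki against A+/Pwt/wt mice, as did 0.0% of all 18640 genes tested, and 0 of 98 had an unadjusted p under 0.05, compared with 2.76% of all genes. DESeq2 and limma called none of the 98. The log2FC was positive for 71 and negative for 27 genes, with a median of 0.03. The direction turned when 1 library was left out, with 26 of 98 positive without mouse 329 (median −0.02), 39 of 97 without mouse 184 (−0.01) and 46 of 98 without mouse 257 (−0.0046), and without mouse 259 the share rose to 87 of 98 (median 0.07). *Ndufa12*, an accessory subunit of complex I, had the smallest p (72.4 ± 6.29 against 66.9 ± 5.80 CPM, log2FC 0.11, SE 0.08, adjusted p 1.00). The extremes among genes of at least 5 CPM were *Ndufs6* (log2FC 0.15, SE 0.12) and *Ndufs1* (log2FC −0.08, SE 0.06). The SEs of the 6 marker genes of the complexes in this comparison were at most 0.11, far below those in microglia.

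**Figure D5:**
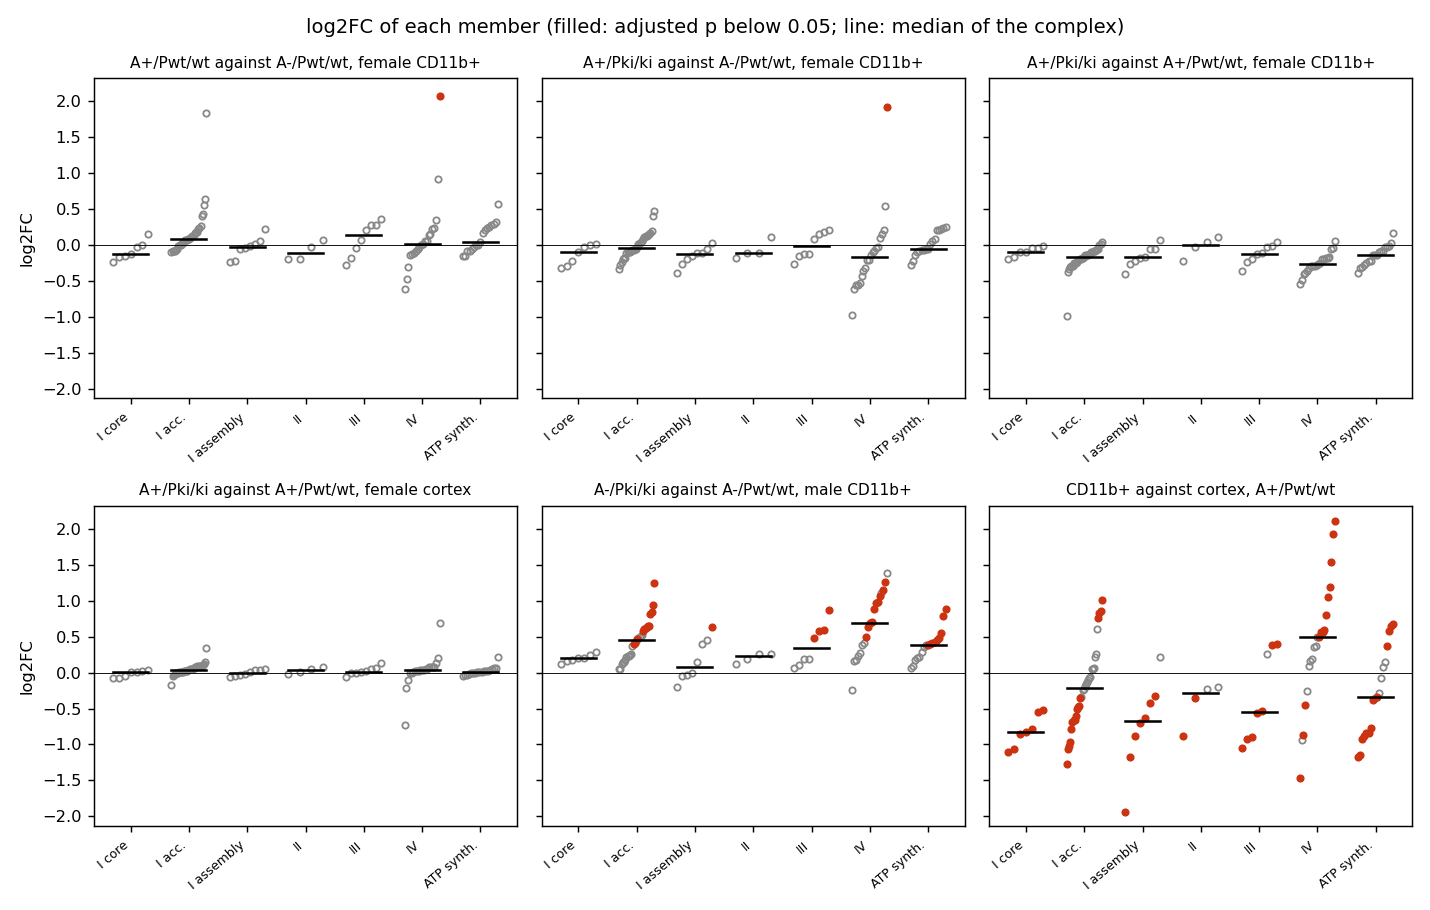
Log2FC of each kept gene (points) by complex in 6 comparisons, filled where the adjusted p is under 0.05, with a line at the median of the complex. In the females, only *Cox6a2* is filled in the A+ against A- comparisons and no gene in the A+/Pki/ki against A+/Pwt/wt comparisons, while in CD11b+ microglia against cortex all 7 core subunits of complex I are filled and below 0.

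Without the transgenes, the P522R change was compared in male microglia. There, 36 of 93 tested genes were higher in A-/Pki/ki than in A-/Pwt/wt mice and 0 lower, compared with 16.4% of all genes called (11.1% higher and 5.26% lower). The calls fell on 10 of 19 complex IV, 13 of 30 complex I accessory, 8 of 17 ATP synthase, 4 of 8 complex III and 1 of 8 complex I assembly genes, and on none of the 7 core genes of complex I or the 4 of complex II. *Ndufb9*, for example, was at 42.7, 82.0, 61.3 and 67.7 CPM in A-/Pki/ki and at 29.3, 26.0 and 24.8 CPM in A-/Pwt/wt mice, without overlap (log2FC 1.25, SE 0.20, adjusted p 0.00579). The other largest rises were those of the complex IV genes *Cox6a1* (log2FC 1.26), *Cox8a* (1.16), *Cox6c* (1.06) and *Cox4i1* (0.98). In the same libraries, 14 of 15 neuronal, 10 of 10 astrocyte, 7 of 10 oligodendrocyte markers and 12 of 13 mitochondrial DNA genes were also higher, and 1 of 10 microglial markers was lower. The oligodendrocyte markers, led by *Mbp* and with none at 0, summed to 26647, 39038, 57631 and 60751 CPM in A-/Pki/ki and to 22576, 23419.8 and 18542 CPM in A-/Pwt/wt mice, and their part was not tested. Without mice 136 and 139, 18 of 92 genes were called, all higher, compared with 5.81% of all genes (4.19% higher and 1.62% lower). Leaving out 1 library gave between 10 calls (without mouse 102) and 42 calls (without mouse 104), beside 894 of 16193 and 5439 of 16242 among all genes. There were 12 without mouse 101 (1236 of 16199 among all genes), 22 without mouse 94 (1111 of 16127) and 19 without mouse 139 (1353 of 16167).

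Whether the P522R effect differs between these males and the A+ females was tested with an interaction term, added after the data were seen. None of 96 genes passed (edgeR), as did 0.0% of all genes, with 25 at an unadjusted p under 0.05 (26.5% of all genes) and a median difference in log2FC of 0.54. Other tools were not run for this term. Without the libraries above 50000 CPM of oligodendrocyte markers (mice 331, 335, 136 and 139), 50 of 93 genes passed, all with a higher effect in the males, compared with 14.7% of all genes (9.48% in that direction and 5.25% in the other), and the median difference was 0.71. Sex, the transgenes and the column suffix differ in the same way between both sets of mice and cannot be told apart.

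CD11b+ microglia were compared with cortex within each A+ genotype, which shows how the make-up of the chain differs between the cell preparation and whole tissue. The brain region (whole brain against temporo-occipital cortex) and the dissociation of the tissue differ in the same way. The mice, the RNA extraction (column kit against TRI reagent) and the library sets do so too. None of these can be told apart from the cell type. In A+/Pwt/wt mice, 20 of 98 genes were higher and 46 lower in microglia, compared with 37.7% and 40.2% of all 18541 genes (77.9% called in all), and the median log2FC was −0.30, against −0.06 over all genes. In A+/Pki/ki mice, 5 of 97 were higher and 47 lower, compared with 36.8% and 39.8% of all genes (76.6% called in all), with a median of −0.46, against −0.08. No library is shared by these comparisons. Apart from 10 of 10 microglial markers, 7 of 7 endothelial, 6 of 6 border macrophage and 6 of 6 neutrophil markers were higher in the CD11b+ libraries of both genotypes, 15 of 15 neuronal markers were lower, 2 of 10 oligodendrocyte markers were higher in each genotype and 5 and 4 lower, and the part of these other cells was not tested. Of the 97 genes tested in both, 45 were lower in both, 5 were higher in both (*Cox6a2*, *Cox7a2l*, *Ndufa4l2*, *Ndufa1* and *Atp5g2*) and 0 changed in opposite directions. The share of all genes called in the same direction in both was not counted, so these counts have no background beside them.

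By complex, all 7 core subunits of complex I were lower in microglia in both genotypes (median log2FC −0.82 and −0.83), as were 7 and 6 of 8 assembly factors (−0.67 and −0.89), compared with 40.2% and 39.8% of all genes. Of the 32 accessory subunits, 13 were lower in each genotype and 4 and 1 higher (median log2FC −0.21 and −0.40), so that the share called lower was near that of all genes. *Ndufv1*, which binds NADH and the flavin cofactor, was at 70.6, 48.2, 55.2 and 53.1 CPM in A+/Pwt/wt microglia and at 171, 153, 168 and 131 CPM in A+/Pwt/wt cortex, without overlap (log2FC −1.11, adjusted p 2.41e-05). In A+/Pki/ki mice its log2FC was −1.32 (SE 0.16, adjusted p 1.00e-04). Among called genes of at least 5 CPM, the largest fall was that of *Ndufaf5*, a methyltransferase-like assembly factor of complex I. It was at 6.44, 5.40, 5.18 and 4.63 CPM in A+/Pwt/wt microglia and at 28.2, 24.5, 24.9 and 27.5 CPM in A+/Pwt/wt cortex (log2FC −1.93, SE 0.13, adjusted p 1.59e-07), and its log2FC was −1.94 (SE 0.20, adjusted p 4.71e-05) in A+/Pki/ki mice. The accessory subunit *Ndufa11* fell (log2FC −1.27 and −1.31), whereas *Ndufa3* and the non-coding *Ndufb1-ps* rose in A+/Pwt/wt (log2FC 0.86 and 0.82) and did not pass in A+/Pki/ki mice (0.42 and 0.62, adjusted p 0.282 and 0.0574). *Ndufaf4* fell as well (log2FC −1.17 and −1.39, adjusted p 1.88e-05 and 1.23e-05). Libraries of the tables were scaled separately for these per-library values and jointly in the fits.

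In the other complexes, counts of genes called lower are to be read against 40.2% of all genes in A+/Pwt/wt and 39.8% in A+/Pki/ki mice. Of complex II, *Sdha* was at 288, 229, 233 and 252 CPM in A+/Pwt/wt microglia and at 371, 371, 386 and 364 CPM in cortex, and its log2FC passed the test in A+/Pki/ki (−0.47, SE 0.17, adjusted p 0.0296) but not in A+/Pwt/wt mice (−0.23, SE 0.11, adjusted p 0.0638). In total, 2 and 3 of the 4 complex II genes were lower. In complex III, 5 of 8 genes were lower in both genotypes, among them *Uqcr10*, a small subunit, at 54.1, 34.1, 33.9 and 38.1 CPM in A+/Pwt/wt microglia and at 79.9, 68.8, 83.9 and 61.3 CPM in cortex (log2FC −0.53, SE 0.16, adjusted p 0.0119). In contrast, *Uqcrh* and *Uqcrb* were higher in A+/Pwt/wt microglia (log2FC 0.38 and 0.40). Of ATP synthase, 9 and 10 of 18 genes were lower, including *Atp5a1* (log2FC −0.88 and −0.90) and *Atp5b* (−0.84 and −0.98), and 4 and 1 were higher.

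Of complex IV, 10 of 21 genes were higher and 3 lower in A+/Pwt/wt microglia, compared with 37.7% and 40.2% of all genes, and the median log2FC was 0.49. In A+/Pki/ki mice, 3 of 20 were higher and 3 lower, compared with 36.8% and 39.8% of all genes, with a median of 0.19. *Cox4i1* was at 709.7, 400.5, 464 and 567.7 CPM in A+/Pwt/wt microglia and at 535, 455, 551 and 387 CPM in cortex, and the groups overlapped (log2FC 0.50, SE 0.19, adjusted p 0.0313). Without mouse 331, *Cox4i1* (log2FC 0.33, adjusted p 0.0823) and *Cox6a1* (0.40, adjusted p 0.0579) no longer passed, and 15 of 97 genes were higher and 55 lower, compared with 38.0% and 41.2% of all genes (79.2% called in all). In A+/Pki/ki mice, *Cox4i1* (log2FC 0.31), *Cox6a1* (0.21) and *Cox8a* (0.16) did not pass, and without mouse 335 all 3 were lower in microglia (−0.37, −0.71 and −0.65, adjusted p 0.00846, 0.000538 and 0.00119). Without that mouse, 5 of 97 genes were higher and 74 lower, compared with 38.9% and 43.1% of all genes (81.9% called in all). The calls of *Cox4i1* and *Cox6a1* in A+/Pwt/wt mice thus rested on mouse 331, with the direction kept without it, and the direction of all 3 genes in A+/Pki/ki mice rested on mouse 335. With total counts in place of TMM, which moved the median log2FC of all genes from −0.06 to −0.42 in A+/Pwt/wt and from −0.08 to −0.37 in A+/Pki/ki mice, 9 kept genes were higher and 59 lower in A+/Pwt/wt (29.3% and 49.2% of all genes, 78.5% in all) and 3 were higher and 65 lower in A+/Pki/ki mice (28.8% and 45.6%, 74.4% in all).

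*Cox5a*, a subunit next to the catalytic core of complex IV, was lower in every comparison of microglia with cortex. It was at 35.0, 21, 23.6 and 22.5 CPM in A+/Pwt/wt microglia and at 96.1, 81.6, 101 and 78.8 CPM in cortex, without overlap (log2FC −1.46, SE 0.17, adjusted p 1.14e-05), and its log2FC was −1.51 (SE 0.16, adjusted p 4.61e-05) in A+/Pki/ki mice. *Cox7b* and *Ndufa4* were the other complex IV genes lower in both genotypes. *Ndufa1* was higher in both, at 66.6, 44.0, 46.2 and 52.3 CPM in A+/Pwt/wt microglia and at 37.9, 28.0, 35.3 and 29.9 CPM in cortex (log2FC 1.02, SE 0.15, adjusted p 9.2e-05), although its call in A+/Pki/ki mice (log2FC 0.75, adjusted p 0.0265) was lost with total counts (log2FC 0.42, adjusted p 0.0881). *Cox6a2* was also higher in microglia than in cortex of A+ mice (log2FC 1.93 and 1.68), as was *Ndufa4l2* (log2FC 1.53, SE 0.33, adjusted p 0.00153, and 0.93, SE 0.36, adjusted p 0.0425). In A+/Pki/ki mice, the count of kept genes called higher (5, beside 6978 of 18954 among all genes) was 3 with total counts (5468 of 18954). It was 3 without cortex mouse 203, 216 or 222 (6505 of 18517, 6531 of 18471 and 6503 of 18479 among all genes). Without cortex mouse 184 it was 4 (6545 of 18771) and without mouse 405 it was 8 (6599 of 18674).

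In gene families with isoforms, microglia and cortex used them in different proportions. In the subunit 7A family, *Cox7a2l* was at 332, 262, 232 and 244 CPM in A+/Pwt/wt microglia and at 159, 149, 159 and 127 CPM in A+/Pwt/wt cortex, without overlap. On the common scale of the fit this was 299.7 ± 49.9 against 130.9 ± 13.1 CPM (log2FC 1.20, SE 0.13, adjusted p 1.07e-05), and the log2FC was 1.21 (SE 0.14, adjusted p 6.98e-05) in A+/Pki/ki mice. *Cox7a2*, the isoform common in liver and most other tissues, was at 97.6, 60.9, 63.1 and 66.8 CPM in A+/Pwt/wt microglia and did not pass (log2FC −0.25, SE 0.16, adjusted p 0.169). Per length, *Cox7a2l* made up 70.0 ± 2.16% of the family in A+/Pwt/wt, 76.1 ± 6.77% in A+/Pki/ki and 73.3 ± 6.08% in A-/Pwt/wt microglia of females and 79.4 ± 1.22% and 72.9 ± 1.79% in A-/Pwt/wt and A-/Pki/ki males. In cortex it made up 46.1 ± 1.31% in A+/Pwt/wt, 46.2 ± 1.5% in A+/Pki/ki and 42.7% in the A-/Pwt/wt library. The lowest share in any CD11b+ library (62.1%) was above the highest in cortex (47.9%).

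Subunit c of ATP synthase showed the same kind of shift. *Atp5g1*, *Atp5g2* and *Atp5g3* encode the same mature protein with different import sequences. *Atp5g2* was at 80.3, 72.3, 66.4 and 70.2 CPM in A+/Pwt/wt microglia, at 75.6, 85.6, 93.2 and 83.7 CPM in A+/Pki/ki microglia and at 48.0 to 67.5 CPM in A+ cortex (log2FC 0.65, SE 0.12, adjusted p 0.000368, and 0.81, SE 0.09, adjusted p 8.64e-05). *Atp5g3* was at 87.0, 59.7, 66.8 and 61.9 CPM in A+/Pwt/wt microglia and at 210.1, 183, 216 and 177 CPM in A+/Pwt/wt cortex (log2FC −1.17, SE 0.14, adjusted p 1.47e-05). Both *Atp5g3* and *Atp5g1* were lower without overlap in both genotypes (*Atp5g1* log2FC −1.15 and −1.33). Per length, *Atp5g2* made up 51.6 ± 3.00% of the family in A+/Pwt/wt, 56.5 ± 5.35% in A+/Pki/ki and 50.2 ± 5.76% in A-/Pwt/wt microglia, and 23.0 ± 0.94% in A+/Pwt/wt cortex, where *Atp5g3* made up 59.8 ± 1.12%. The exon lengths behind these shares, summed over all annotated isoforms, were 4912 bases for *Atp5g1*, 1675 for *Atp5g2* and 2181 for *Atp5g3*. The shares therefore depend on the annotation. The exons of *Atp5g2* also hold the microRNA gene *Mir688* on the same strand.

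The other families kept their common isoform in both preparations. *Cox4i1* made up at least 96.9%, *Cox6b1* at least 93.0%, *Cox7b* at least 98.2% and *Cox8a* at least 97.9% of its family in every library. *Cox4i2*, *Cox6b2* and *Cox8b* were called higher in A+/Pwt/wt microglia than in cortex, but their means in these microglia were low (2.81, 2.95 and 0.71 CPM). *Ndufa4l2* made up 18.6 ± 6.08% of the NDUFA4 family in A-/Pwt/wt, 10.1 ± 2.55% in A+/Pwt/wt and 10.01 ± 2.07% in A+/Pki/ki microglia and 2.21 ± 0.38% in A+/Pwt/wt cortex.

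Genes that work with the chain were counted from lists in the same fits, in which 37.7% of all genes were higher and 40.2% lower in A+/Pwt/wt microglia than in cortex and 36.8% higher and 39.8% lower in A+/Pki/ki mice. Of 12 citrate cycle genes, 9 were lower and 1 higher in microglia than in cortex in each genotype. Of 25 tested assembly genes of complexes II to V, 15 were lower in each genotype and 1 and 2 higher. A further list held 7 genes for cytochrome c, cytochrome c1 (*Cyc1*, not matched by the name rule) and other electron transfer proteins. Of these, 4 were lower in each genotype and 3 and 2 higher. In contrast, all 13 mitochondrial DNA genes were higher in A+/Pwt/wt microglia, of which 4 passed in A+/Pki/ki mice, and 83 of 86 ribosomal protein genes were higher in A+/Pwt/wt mice. Of 10 regulators of respiratory genes, such as *Ppargc1a* and *Nrf1*, 4 were higher in each genotype and 5 and 4 lower, near the shares of all genes. In A+ against A- female microglia with wild-type PLCG2, 0 of the 12 citrate cycle, 25 assembly, 7 cytochrome and other electron transfer and 13 mitochondrial DNA genes passed (edgeR), with 1, 1, 0 and 0 at an unadjusted p under 0.05. Of all genes in this comparison, 1.29% passed and 1755 of 17355 had an unadjusted p under 0.05. In male A-/Pki/ki against A-/Pwt/wt microglia, 1 of 12 citrate cycle, 1 of 25 assembly, 1 of 7 cytochrome and other electron transfer and 0 of 10 regulator genes were higher and none lower, compared with 11.1% of all genes higher and 5.26% lower.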

How the data were processed

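The authors trimmed the 150-bp paired-end reads of 31 oligo(dT)-selected libraries with Trimmomatic 0.39, aligned them with STAR 2.7.9a to GRCm38 (Gencode M25) and counted unique primary alignments per gene with featureCounts irrespective of strand (versions per the submitters' processing notes), and deposited these as raw counts. Counting without strand leaves 31 of the kept genes with exons shared with a gene on the other strand and 5 with one on the same strand. A second set of tables deposited by the authors holds log2-like values from the variance-stabilizing transformation of DESeq2, used here for limma alone. Counts of genes with at least 10 in at least 3 fitted libraries were TMM-scaled, and groups were compared by two-sided quasi-likelihood testing (edgeR 4.0.16, R 4.3.3) at FDR 0.05 (Benjamini-Hochberg, all genes tested). Each of 7 comparisons was fitted on its own 2 groups. The SE of a log2FC was its size over the square root of F. Exon lengths, coordinates and the coding sequences come from a Gencode release on GRCm38 that is older than the one used for counting. Replicates are separate mice. The level of 1 kept gene and 1 detail of the transgenes are not reported here.

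Named were 6 markers of the complexes, every kept isoform family member, the most abundant gene per length of each complex in each preparation, every called gene where there were 10 or fewer and otherwise the 5 largest rises and falls of at least 5 CPM, and, where none was called, the genes of smallest p and of largest and smallest log2FC. *Uqcrc2*, *Uqcrb*, *Atp5b* and the spread of *Ndufb9* were chosen after their values were seen, and so was the GABP motif. The genes, lists and rules were chosen with earlier results of these data known. The alternatives were DESeq2 1.42.0 size factors, total counts, no mitochondrial DNA genes, no low-count filter, filterByExpr, the DESeq2 Wald test, limma 3.58.1, fitting every group of a table together and leaving out each library. The edgeR fits were tested on simulated data, but no result of that test is reported here and no statement rests on it. Sums, shares and figures were made with Python 3.11.15, pandas 2.3.3, numpy 2.4.6 and matplotlib 3.10.9.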

Additional observations from a re-analysis of the deposited data

Results flagged for a closer look

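Single libraries stood far from the others of their group in 26 of 210 sets of values with 4 to 7 libraries that were examined, and all 26 concern 2 mice. Chance marks about 1 in 20 independent sets, but these sets share libraries and genes, so that this rate gives no expected number for them. Mouse 335 of the A+/Pki/ki CD11b+ group was far above the other 3 libraries in the summed CPM of complex IV (4309, the others up to 1598), complex I accessory subunits (1797), the complex I core (448), complex III (749) and ATP synthase (2579.5). In the same library, this was so for *Cox4i1* (1036 CPM), *Cox6a1* (850.1), *Cox8a* (788), *Cox6c* (308) and *Cox5a* (33.8) of complex IV, and for *Atp5g1* (58.3) and *Atp5g3* (88.0) of ATP synthase. The complex I genes concerned were *Ndufa1* (75.3 CPM), *Ndufa3* (109), *Ndufa12* (62.6), *Ndufb1-ps* (40.4), *Ndufb8* (75.7), *Ndufb9* (148) and *Ndufs6* (45.2). Mouse 331 of the A+/Pwt/wt CD11b+ group was far above its group in the sums of ATP synthase (2388 CPM), complex I accessory subunits (1585), complex I assembly factors (99.6), the complex I core (445) and complex II (482), and in *Ndufa4l2* (12.2) and *Ndufs6* (40.3 CPM). Both libraries also had the most oligodendrocyte RNA of their groups, and the part of this RNA was not tested.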

How the results depend on the processing

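The groups compared hold 3 to 7 libraries. Members called in A+/Pwt/wt against A-/Pwt/wt microglia numbered 1 to 2 when 1 library was left out. The count was 2 without mouse 331 (274 of 17208 among all genes). It was also 2 without the libraries above 50000 CPM of oligodendrocyte markers (673 of 16975). In A+/Pki/ki against A-/Pwt/wt microglia the count was 1 to 2 when 1 library was left out. It was 2 without mouse 335 (1097 of 17287), with the DESeq2 Wald test (932 of 17446) and without those libraries (1182 of 16978). *Cox6a2* was called in both under every alternative run, with log2FC of 1.83 to 2.20 and 1.67 to 2.06. In males the count was 36 (2685 of 16373 among all genes), with 10 to 42 when 1 library was left out (894 of 16193 and 5439 of 16242). Without mice 136 and 139 it was 18 (922 of 15881). For CD11b+ microglia against cortex it was 66 in A+/Pwt/wt mice, with 59 (without mouse 380) to 70 (without mouse 331) when 1 library was left out. Of all genes, 14443 of 18541 were called there, and 13746 of 18304 and 14553 of 18368 without these mice. In A+/Pki/ki mice it was 52, with 42 (without mouse 244) to 79 (without mouse 335, the only library above the limit there). Of all genes, 14517 of 18954 were called, and 13529 of 18689 and 15400 of 18799 without these mice. Without mouse 335, log2FC between A+/Pki/ki microglia and cortex turned to −0.37 for *Cox4i1*, −0.71 for *Cox6a1* and −0.65 for *Cox8a*. With any 1 library left out the range was −0.37 to 0.53, −0.71 to 0.46 and −0.65 to 0.42. The interaction gave 50 calls in place of 0 without 4 libraries (2532 of 17196 among all genes, in place of 0 of 17619). The log2 ratio of complex IV levels in A-/Pki/ki against A-/Pwt/wt males was 0.85 from summed CPM and 0.47 from the median log2 CPM. Causes were not tested beyond the construction of each alternative. All other counts of called genes under other scalings, filters and tools (50 in all) were within 1.5 times the value reported. Of the log2FC of named genes, 685 kept their side of the threshold under these alternatives (a sign was compared for called values alone), 7 passed it newly and 6 no longer passed it. With 1 library left out, 790 kept it, 7 passed newly, 37 no longer passed and 3 reversed, and under the alternatives added after the data were seen 69 kept it, 6 passed newly, 5 no longer passed and 3 reversed.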
